A study of Homo sapiens with 62 samples.

Results

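The 4 C/EBP factor genes examined here were CEBPA, CEBPB, CEBPD and CEBPG, of 29794 genes in the tables of a SLAM-seq experiment in pancreatic ductal adenocarcinoma (PDAC) cells. They were picked by gene name, and the set was chosen by a measured value, because CEBPD was among the strongest losses of new RNA after NVP-2 in AsPC-1 cells. Values of that contrast are therefore given as a description with no test. SLAM-seq feeds cells 4-thiouridine (4sU), here for 2 h, so that new RNA reads C in place of T after alkylation. Reads with such a change (T>C reads) count new RNA, all reads count total RNA, and the labelled share is the percentage of a gene's reads that are T>C reads.

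The 62 libraries came from AsPC-1 and T3M-4, human PDAC lines described as classical and basal-like. Every library carried the genotype FKBP12-F36V-FLAG-KLF5_sgEndogenousKLF5, in which a tagged KLF5 stands in for the endogenous protein and can be degraded. In AsPC-1, 10 libraries were treated for 4 h with dTAG, the degrader of tagged KLF5, and 10 with its negative control compound (NEG). A further 5 AsPC-1 libraries received CB-6644, an inhibitor of the ATPases RUVBL1 and RUVBL2, for 4 h, 5 received DMSO for 4 h and 4 received the CDK9 inhibitor NVP-2 for 4 h. CB-6644 and DMSO were also given for 12 h, with 4 AsPC-1 libraries each. T3M-4 received the same 5 treatments at 4 h only, with 4 libraries for each. The labels do not tie replicates to separate cultures, so p-values measure the spread between these libraries, which may be technical. The labels give 2 batches. For the 4 h libraries the first digit of a replicate number is taken here as its experiment, and the 12 h libraries are all taken as the same experiment. dTAG acts on KLF5 protein, so these RNA tables hold no check of the degradation itself.

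T>C totals ran from 8296430 to 18312000 reads in AsPC-1 libraries other than NVP-2 and from 2241000 to 3517340 after NVP-2. In T3M-4 they ran from 13562600 to 27982500 and, after NVP-2, from 3714020 to 4982010. EPCAM, an epithelial marker, stood at 127 to 379 CPM (counts scaled to library size) of all reads in the AsPC-1 control libraries and at 31.1 to 39.2 CPM in those of T3M-4. The basal marker TP63 was at 0 to 0.173 CPM in AsPC-1 and 17.7 to 31.1 CPM in T3M-4. The classical marker HNF4A was at 10.0 to 34.7 CPM and 0.108 to 0.559 CPM, respectively. GATA6 and MUC13, also classical, were higher in every AsPC-1 control library than in any of T3M-4. The classical marker TFF1 overlapped, at 0.23 to 4.17 CPM in AsPC-1 and 0.312 to 1.396 CPM in T3M-4. The basal markers KRT5, KRT17 and S100A2 were all higher in T3M-4. S100A2 was not absent from AsPC-1, at 12.9 to 56.9 CPM against 1489 to 2241 CPM in T3M-4. The leukocyte marker PTPRC did not pass 0.464 CPM in a control library of either line. PECAM1 (endothelium) and COL3A1 (fibroblast) stayed at or below 0.459 and 0.136 CPM, whereas COL1A1 (fibroblast) stood at 5.75 to 8.57 CPM in T3M-4. Apart from treatment, 38 AsPC-1 libraries fell into 3 sets (A, B and C) by their 500 most variable genes, with NVP-2 libraries and the C/EBP genes left out. Libraries of NEG and dTAG with the same replicate number shared a set in 10 of 10 cases, as did DMSO and CB-6644 at 12 h in 4 of 4, but at 4 h CB-6644 replicate 1.2 was in set B and DMSO replicate 1.2 in set A. In the all-reads table, the AsPC-1 dTAG replicate 3.1 column equalled the T>C counts of AsPC-1 DMSO 12 h replicate 2 at every gene, so it was left out and dTAG all-reads and share values there rest on 9 libraries.

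On hg38 with GENCODE gene models, CEBPA lies at chr19:33299934-33302534 on the minus strand and CEBPG on the same chromosome at chr19:33373685-33382686 on the plus strand. CEBPB lies at chr20:50190830-50192668 on the plus strand and CEBPD at chr8:47736913-47738164 on the minus strand. All counts come from 3′ untranslated region (UTR) exons. CEBPG has 3 transcripts with overlapping 3′UTR exons, and whether such overlaps were merged before counting is not given in the sources used here.

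C/EBP proteins are basic leucine zipper factors that bind DNA as homodimers or heterodimers with one another and with related factors. CEBPA drives differentiation and exit from the cell cycle in myeloid cells, liver and fat, CEBPB and CEBPD are induced by inflammatory and stress signals such as interleukin-6, and CEBPG, which lacks a strong activation domain, acts mainly as a heterodimer partner, for example of ATF4. CDK9 releases paused RNA polymerase II into elongation, and KLF5 belongs to the KLF/SP family, which reads CACCC boxes and GC boxes.

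Bases upstream of a start site are shown for 3 of the genes because dTAG removes a factor that reads these boxes. The CEBPA and CEBPG windows end at the start of the GENCODE gene model, whereas the CEBPB window ends at the first of 2 RefSeq starts, which lies 247 bases before the GENCODE start. Sequences are from RefSeq (GRCh38.p14), 5′ to 3′ on the gene's strand, with CACCC boxes (CACCC or GGGTG) and GC boxes (CCGCCC or GGGCGG) in capitals.
CEBPA (chr19:33302535-33302784, minus strand): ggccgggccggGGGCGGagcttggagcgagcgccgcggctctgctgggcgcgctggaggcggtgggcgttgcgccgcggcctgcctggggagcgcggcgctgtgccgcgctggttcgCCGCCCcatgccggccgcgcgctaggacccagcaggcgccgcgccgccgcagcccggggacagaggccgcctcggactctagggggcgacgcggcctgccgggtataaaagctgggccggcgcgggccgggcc
CEBPB (chr20:50190333-50190582, plus strand): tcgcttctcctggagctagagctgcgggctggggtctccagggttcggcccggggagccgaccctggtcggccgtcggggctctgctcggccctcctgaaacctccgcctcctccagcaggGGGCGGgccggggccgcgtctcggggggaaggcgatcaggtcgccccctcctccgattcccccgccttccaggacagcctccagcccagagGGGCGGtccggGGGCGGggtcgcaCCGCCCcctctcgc
CEBPG (chr19:33373459-33373684, plus strand): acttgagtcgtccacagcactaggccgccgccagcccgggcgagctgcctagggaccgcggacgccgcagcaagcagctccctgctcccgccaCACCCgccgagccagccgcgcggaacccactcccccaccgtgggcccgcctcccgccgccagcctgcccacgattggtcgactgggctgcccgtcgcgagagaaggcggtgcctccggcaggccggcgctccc
The CEBPA window of 250 bases held 2 GC boxes and 0 CACCC boxes, that of CEBPB (250 bases) 4 GC boxes and 0 CACCC boxes, and that of CEBPG (226 bases) 0 GC boxes and 1 CACCC box. No capital letter was shared by both kinds of box. The 250 bases before the second RefSeq start of CEBPB, which is the GENCODE start and is not printed, held 5 GC boxes and 2 CACCC boxes. CEBPG also has a second RefSeq start, at chr19:33374113 inside the gene model. The 250 bases before it, not printed, held 1 GC box and 2 CACCC boxes. Of 35116 promoter windows of 250 bases, 54.7% held a CACCC box and 42.6% a GC box on either strand. GC content was 81.2%, 75.6% and 75.7% in the 3 windows.

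The 3′UTRs also differed in the pentamer ATTTA, the core letters of AU-rich elements, which are known from short-lived messenger RNAs. These 29-base windows (hg38, transcript strand) are printed for CEBPA and CEBPB, each of which held a single match, with the pentamer in capitals.
CEBPA: ggcaactctagtATTTAggataaccttgt
CEBPB: gcccgtggtgttATTTAaagaagaaacgt
The CEBPA match began at base 272 of a 3′UTR of 1407 bases, and the CEBPB match at base 229 of 600. CEBPD had 0 matches in 401 bases and CEBPG 9 in 2997. The matches per kb were 0.711, 1.67, 0 and 3.003 in that order of genes, against a median of 1.75 over 12986 genes, of which 74.1% held the pentamer. The share of T in the last 250 bases, which limits how many bases can carry the label, was 24.4% for CEBPA, 39.2% for CEBPB, 34.0% for CEBPD and 36.8% for CEBPG, and 17.1%, 86.1%, 58.7% and 74.4% of genes lay below them.

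In control libraries the C/EBP genes had labelled shares above those of most genes. In AsPC-1 NEG libraries the mean share was 48.0% ± 3.58 (SD, n = 10) for CEBPD, 46.2% ± 4.31 for CEBPB, 41.7% ± 4.29 for CEBPA and 37.2% ± 3.11 for CEBPG. The median gene with at least 100 reads had a share of 14.6%, and 98.4%, 97.7%, 95.6% and 92.6% of 11513 genes lay below these 4. In T3M-4 NEG libraries the shares were 67.8% ± 0.566 (SD, n = 4) for CEBPD, 63.9% ± 1.78 for CEBPA, 57.1% ± 2.24 for CEBPB and 34.8% ± 1.32 for CEBPG. There, 97.99%, 97.1%, 95.2% and 81.7% of 12504 genes lay below, with a median of 17.4%. CEBPD thus led the 4 in both lines and CEBPG came last, and for CEBPD and CEBPB every T3M-4 library outside NVP-2 lay above every AsPC-1 library. That difference between lines was not tested, and how many other genes separate in the same way was not counted. The median gene was higher in T3M-4 as well (17.4% against 14.6%).

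**Figure D1:**
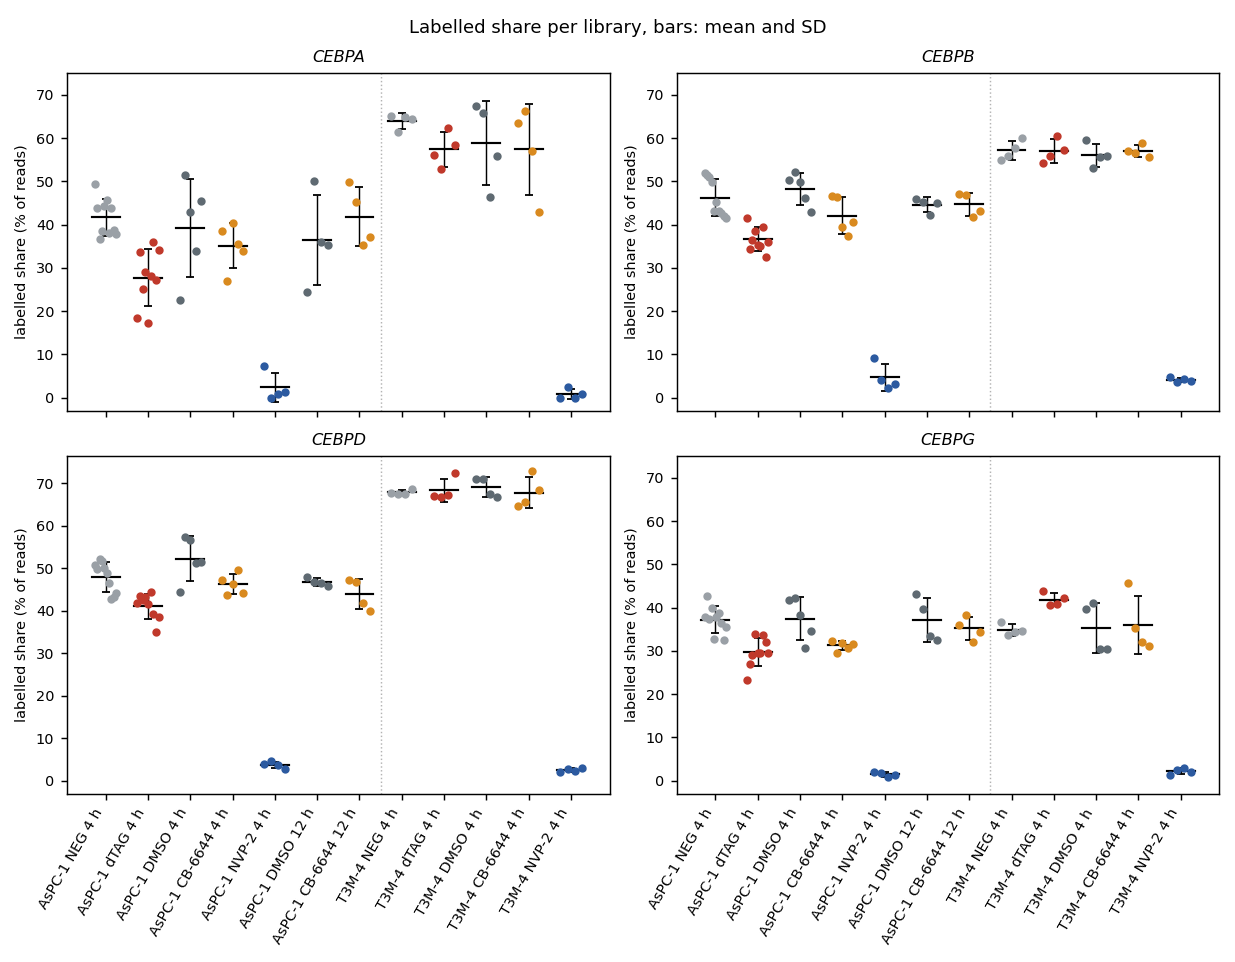
Labelled share (percentage of a gene's reads that are T>C reads) of each C/EBP gene in every library, by line and treatment, with bars for mean and SD. NVP-2 libraries lie between 0% and 9.25% in every panel, and CEBPD in T3M-4 has the highest shares, 64.6% to 72.8% outside NVP-2.

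The level of new RNA was compared within each gene across the 12 groups, in T>C CPM, which scales each count to the T>C reads of its library. CEBPA was highest with CB-6644 at 4 h in AsPC-1 (11.4 ± 6.04 CPM, SD, n = 5) and next in AsPC-1 NEG (9.82 ± 5.59, n = 10) and AsPC-1 CB-6644 12 h (9.39 ± 2.98, n = 4). The T3M-4 groups outside NVP-2 lay between 6.67 and 7.92 CPM, AsPC-1 DMSO 12 h and 4 h at 6.57 and 6.47, AsPC-1 dTAG at 4.60 ± 2.91 (n = 10), and NVP-2 last at 0.455 in AsPC-1 and 0.230 in T3M-4. Of the 11 neighbouring pairs in this order, 10 differed by less than the larger SD of the pair, and the exception was AsPC-1 dTAG against AsPC-1 NVP-2.

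CEBPB ran from 106 ± 28.9 CPM (SD, n = 4) in T3M-4 NEG through the other T3M-4 groups (100.3, 100.2 and 95.5) to AsPC-1 DMSO 4 h (69.8 ± 24.3, n = 5). AsPC-1 CB-6644 4 h, NEG and DMSO 12 h followed at 63.6, 63.3 and 60.6 CPM, then dTAG at 48.7 ± 11.7 (n = 10) and CB-6644 12 h at 45.0 ± 1.01 (n = 4), and last NVP-2 at 20.7 in T3M-4 and 8.78 in AsPC-1. Here 8 of 11 neighbouring pairs lay within the spread. The 3 gaps beyond it were below AsPC-1 DMSO 12 h, below CB-6644 12 h and between the NVP-2 groups.

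CEBPD was highest with dTAG in both lines, at 84.1 ± 23.6 CPM (SD, n = 10) in AsPC-1 and 81.0 ± 13.7 (n = 4) in T3M-4. AsPC-1 DMSO, CB-6644 and NEG at 4 h followed at 74.9, 74.9 and 71.8 CPM, then T3M-4 DMSO and CB-6644 and AsPC-1 DMSO 12 h at 64.6, 63.1 and 61.9 CPM. T3M-4 NEG (56.6 ± 2.40, n = 4) and AsPC-1 CB-6644 12 h (46.8 ± 4.63, n = 4) came just above NVP-2 (7.64 in T3M-4 and 5.08 in AsPC-1). CEBPG ran from 114 ± 21.3 CPM (SD, n = 5) in AsPC-1 CB-6644 4 h to 75.3 ± 18.5 (n = 4) in T3M-4 CB-6644, with NVP-2 at 27.5 and 12.5 CPM. For CEBPD 8 and for CEBPG 9 of 11 neighbouring pairs lay within the spread, and every gap beyond it was at or just above the NVP-2 groups or, for CEBPD, between T3M-4 NEG and AsPC-1 CB-6644 12 h.

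**Figure D2:**
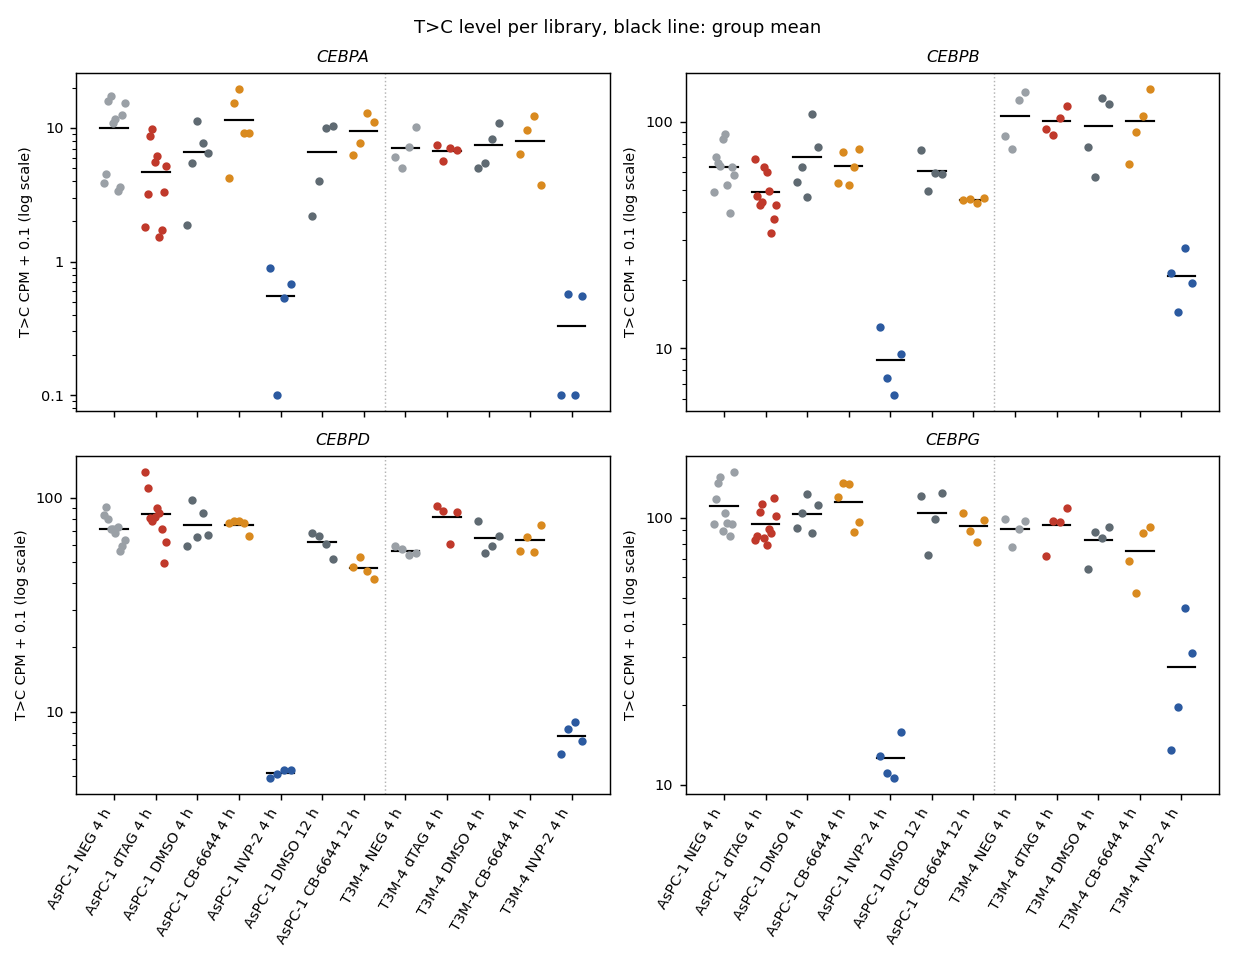
T>C CPM plus 0.1 (log scale) of each C/EBP gene in every library, by line and treatment, with a black line at the group mean. All 4 genes are lowest after NVP-2 in both lines, and CEBPA spreads widely within the AsPC-1 groups, from 3.28 to 17.3 CPM in NEG.

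NVP-2 in AsPC-1 is the contrast from which the set was proposed. CEBPD stood at 4.79, 5.02, 5.25 and 5.24 T>C CPM in the 4 NVP-2 libraries and at 59.3, 97.8, 65.6, 84.8 and 67.2 CPM in the 5 DMSO libraries. The NVP-2 libraries lay far below and close together, on 9 to 12 T>C reads each. The fitted log2 fold change was -3.76, and 1.81% of the 11498 genes fitted had a lower one. CEBPA was at -3.64 (1.96% of genes lower), CEBPG at -2.93 (3.99%) and CEBPB at -2.86 (4.31%), against a median of -0.05 over all genes.

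CEBPB had 12.4, 7.30, 6.12 and 9.32 T>C CPM after NVP-2 and 53.9, 63.1, 46.6, 108 and 77.0 in DMSO. CEBPG had 12.8, 10.9, 10.5 and 15.7 CPM after NVP-2 and 91.7, 104, 123, 87.3 and 112 in DMSO. No NVP-2 library overlapped a DMSO library for either gene, but how many of all genes separate in the same way was not counted. In bulk libraries fewer expressing cells and less RNA per cell cannot be told apart. For CEBPA only 2, 0, 1 and 1 T>C reads were left among 27, 42, 120 and 74 reads in all, so its fitted fold change depends on the prior count. From the summed reads, 4 after NVP-2 against 363 in DMSO, the CEBPA level was 14.1 times higher in DMSO, with an exact 95% interval of 5.46 to 52.0 that covers counting error only.

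Total RNA of the C/EBP genes was lower as well, with log2 fold changes in all reads of -2.92 for CEBPD, -2.30 for CEBPB, -1.99 for CEBPA and -1.13 for CEBPG. The labelled share went from 52.3% to 3.73% for CEBPD, from 48.3% to 4.67% for CEBPB, from 39.3% to 2.40% for CEBPA and from 37.5% to 1.44% for CEBPG. Over whole libraries the share was 10.1% in DMSO and 1.57% after NVP-2. No unlabelled library was analysed here, so the part of these last T>C reads that is sequencing error was not measured. The AsPC-1 NVP-2 libraries are all of batch 2 and the DMSO 4 h libraries all of batch 1, so batch and treatment cannot be told apart in this contrast. Against the batch 2 NEG libraries CEBPD was at -3.45 and CEBPB at -2.42.

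In T3M-4 all 4 C/EBP genes fell in new RNA after NVP-2, where 26.7% of 12242 genes tested were called (1740 lower and 1523 higher). The measured value behind the choice came from AsPC-1. The members were chosen with earlier results of these data known, however, so T3M-4 is not an independent check. CEBPD stood at 6.28, 8.24, 8.86 and 7.18 T>C CPM after NVP-2 and at 77.7, 55.4, 59.4 and 66.1 in DMSO. CEBPB stood at 21.5, 14.4, 27.7 and 19.3 CPM after NVP-2 and at 77.6, 57.0, 127 and 120 in DMSO. The groups did not overlap for either, but how many of all genes separate in this way after NVP-2 was not counted.

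The log2 fold change of CEBPD was -3.02 ± 0.32 (SE), with an adjusted p = 0.000294 (edgeR quasi-likelihood test). That of CEBPB was -2.16 ± 0.37 (adjusted p = 0.00238). CEBPG stood at 13.5, 19.5, 45.8 and 31.0 CPM after NVP-2 and at 64.2, 88.7, 84.2 and 92.4 in DMSO, again without overlap, for a log2 fold change of -1.54 ± 0.39 (adjusted p = 0.0150). CEBPA kept 0, 2, 0 and 1 T>C reads after NVP-2, against 122, 92, 151 and 242 in DMSO, and its fitted value was -4.84 ± 0.91 (adjusted p = 0.00369). From the summed reads its level was 30.2 times higher in DMSO, with an exact 95% interval of 10.3 to 147 for counting error. CEBPA thus had the 118th lowest fold change of 12242 genes, CEBPD the 592nd, CEBPB the 1231st and CEBPG the 2125th.

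These values are relative to the other new RNA of the same library, since the T>C reads of all genes together were fewer after NVP-2. Scaled by all reads, which moved the median gene from -0.12 to -2.97 and left 10 of 10536 called genes higher, CEBPA was at -7.44, CEBPD at -5.89, CEBPB at -5.03 and CEBPG at -4.52. Within batch 1 and batch 2, CEBPD was at -3.07 and -2.93, CEBPB at -1.79 and -2.36, and CEBPA at -4.14 and -5.39, all past the threshold, whereas CEBPG passed in batch 1 (-2.09, adjusted p = 0.0128) and not in batch 2 (-1.16, adjusted p = 0.0669).

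The changes in all reads were smaller. There, 5.16% of 15653 genes were called, among them CEBPB at -1.25 ± 0.20 (adjusted p = 0.00736) and CEBPD at -1.08 ± 0.25 (adjusted p = 0.0350). CEBPB had 9.40, 9.70, 7.92 and 7.07 CPM of all reads after NVP-2 against 18.4, 14.2, 24.5 and 22.7 in DMSO, and CEBPD 6.40, 7.33, 4.66 and 3.39 against 15.5, 10.3, 9.40 and 10.5. Neither gene's groups overlapped, though how many of all genes separate so in all reads was not counted. The CEBPD call was lost in 7 of 8 edgeR fits that left out 1 library (adjusted p up to 0.117). CEBPA, at -1.51 ± 0.39, missed the threshold (adjusted p = 0.0626) and passed it in DESeq2 (adjusted p = 0.00386), and CEBPG was at -0.46 ± 0.16 (adjusted p = 0.168).

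The labelled share fell for 11494 of 12242 genes tested, 93.9% being called in either direction, and for all 4 C/EBP genes. CEBPD went from 69.1% ± 2.34 to 2.49% ± 0.428 (SD, n = 4 each), CEBPA from 58.8% ± 9.76 to 0.797% ± 1.12, CEBPB from 56.0% ± 2.61 to 4.06% ± 0.463 and CEBPG from 35.4% ± 5.80 to 2.11% ± 0.696. On the log2 odds of the share the changes were -6.44, -7.03, -4.91 and -4.71, against a median of -3.62 over all genes, with adjusted p = 1.39e-06, 2.2e-05, 2.46e-06 and 4.64e-06 (limma). CEBPD's change was lower than those of all but 3.44% of genes. The CEBPA value rests on the 3 T>C reads left and on the pseudocount of 0.5, and with a pseudocount of 5 it was -4.55, with CEBPD at -6.18, CEBPB at -4.81, CEBPG at -4.63 and the median gene at -3.19. After NVP-2 the CEBPB share still lay above 75.9% of genes, that of CEBPD above 56.1% and that of CEBPG above 49.2%, where the median was 2.15%.

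**Figure D3:**
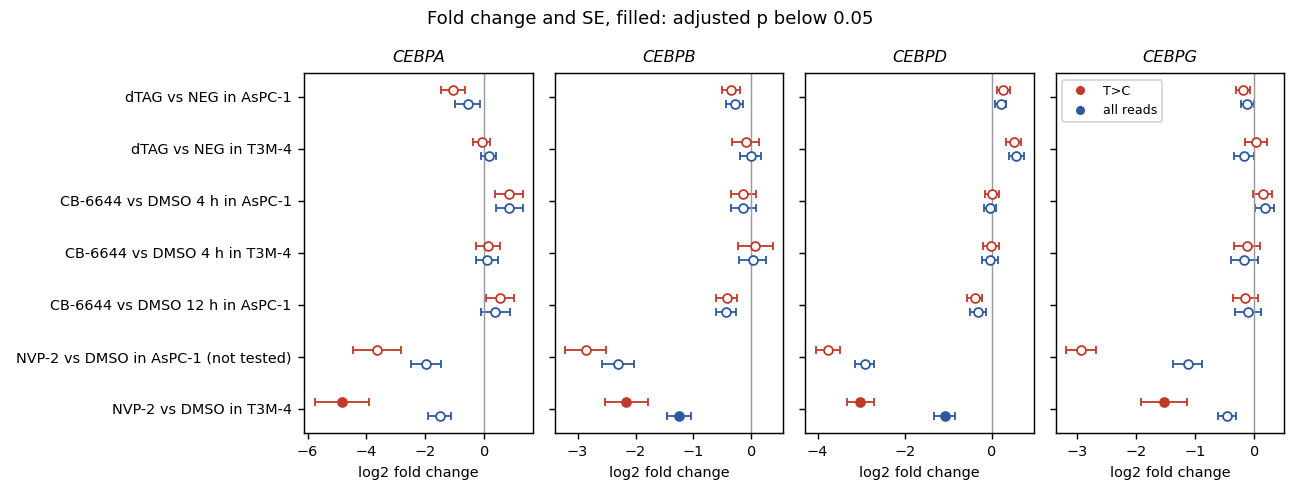
Fitted log2 fold change with its SE for each C/EBP gene in 7 comparisons, for T>C reads (red) and all reads (blue), filled where the adjusted p is below 0.05 and open otherwise. Filled points appear only for NVP-2 in T3M-4, where T>C values lie from -4.84 for CEBPA to -1.54 for CEBPG, and the AsPC-1 NVP-2 values carry no test.

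The dTAG comparison asks which genes depend on KLF5. In AsPC-1, CEBPA was lower in new RNA in every pair of libraries with the same replicate number, while the other 3 genes moved less. How many of all genes were lower in every such pair was not counted. Whether equal numbers mark true pairs was not tested. CEBPA had 1.44 to 9.71 T>C CPM in the 10 dTAG libraries (median 4.17) and 3.28 to 17.3 in the 10 NEG libraries (median 11.2). The pooled groups overlapped, with 5 of 10 dTAG libraries below all of NEG. The log2 fold change was -1.06 ± 0.40 (adjusted p = 0.228), and 2.4% of 11696 genes tested were called (54 higher and 227 lower).

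CEBPA differed more between library sets than between the treatments. In NEG it stood at 3.28 to 4.45 CPM in the 4 libraries of set A, 12.4 to 17.3 in the 4 of set B and 10.8 to 11.5 in the 2 of set C. In dTAG it stood at 1.44 to 3.12, 3.25 to 9.71 and 5.48 to 6.10 CPM, below the NEG range of the same set in all 3. The pairs ran from -1.90 to -0.50 on the log2 scale, lower with dTAG in 10 of 10. With the replicate number as a block, a fit that compares libraries within their pair and called 867 genes, CEBPA fell by 1.08 ± 0.15 (log2, SE, adjusted p = 0.00038), and with library set and experiment as blocks by 1.06 ± 0.15 (adjusted p = 7.38e-05). Within batch 1 its value was -0.85 (adjusted p = 0.550) and within batch 2 -1.60 (adjusted p = 0.485), without the block. Summed by experiment, with experiment as a block, it was -1.10 ± 0.21 (adjusted p = 0.0533).

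**Figure D4:**
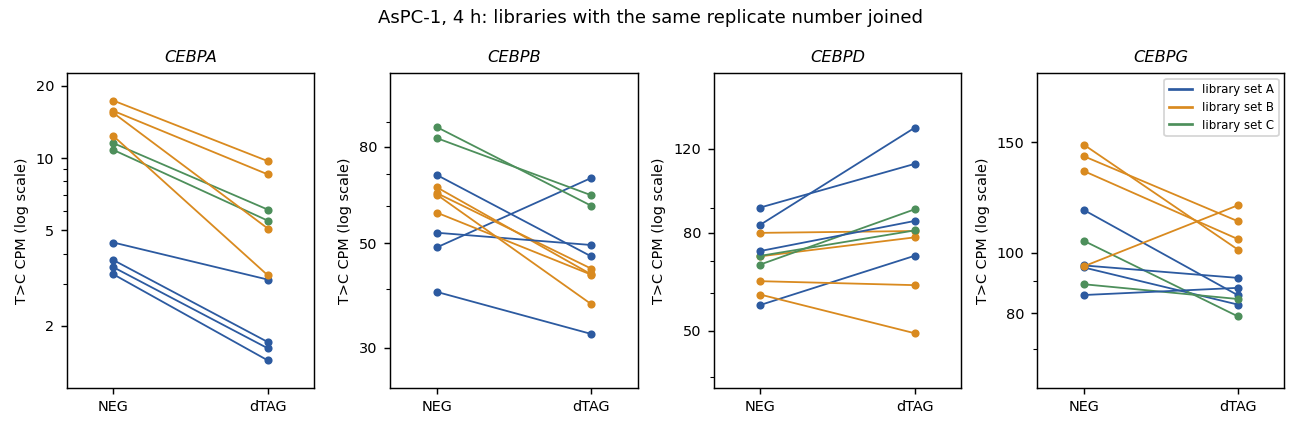
T>C CPM (log scale) of each C/EBP gene in AsPC-1 NEG and dTAG libraries at 4 h, with libraries of the same replicate number joined and coloured by library set. All 10 CEBPA lines slope down, 9 of 10 do for CEBPB, 8 of 10 for CEBPG and 2 of 10 for CEBPD.

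CEBPB had 32.1 to 68.7 T>C CPM with dTAG (median 45.5) and 39.4 to 88.0 with NEG (median 63.6), for a log2 fold change of -0.35 ± 0.15 (adjusted p = 0.344) and lower in 9 of 10 pairs. CEBPG had 79.0 to 119 CPM (median 89.5) against 85.5 to 149 (median 99.9), at -0.20 ± 0.12 (adjusted p = 0.601) and lower in 8 of 10 pairs. CEBPD had 49.4 to 133 CPM (median 80.8) against 56.5 to 90.3 (median 71.5), at 0.26 ± 0.14 (adjusted p = 0.522) and higher in 8 of 10 pairs, or 0.15 without dTAG replicate 1.1. The ranges of all 3 overlapped, and none passed the test with the block either (adjusted p = 0.0708, 0.281 and 0.164). Scaled by all reads, which moved the median gene from 0.03 to -0.24 and left 10 of 1190 called genes higher, CEBPB was at -0.62 (adjusted p = 0.0136) and CEBPG at -0.45 (adjusted p = 0.0361), both past the threshold, CEBPA at -1.18 (adjusted p = 0.0587) and CEBPD at -0.02 (adjusted p = 0.956).

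In all reads 0.797% of 13931 genes were called and none of the 4, with log2 fold changes of -0.57 ± 0.42 for CEBPA, -0.28 ± 0.15 for CEBPB, 0.20 ± 0.13 for CEBPD and -0.12 ± 0.11 for CEBPG. The labelled share fell for all 4, but so it did for 4844 of 11761 genes, 41.2% being called in either direction. CEBPA went from 41.7% ± 4.29 (SD, n = 10) in NEG to 27.7% ± 6.60 (n = 9) in dTAG, and 9 of 9 dTAG libraries lay below all of NEG. CEBPB went from 46.2% to 36.6% (8 of 9 below all of NEG), CEBPD from 48.0% to 41.1% (6 of 9) and CEBPG from 37.2% to 29.7% (7 of 9). How many of all genes separated as far in share was not counted.

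On the log2 odds the changes were -0.92 ± 0.20 for CEBPA, -0.57 ± 0.11 for CEBPB, -0.49 ± 0.10 for CEBPG and -0.41 ± 0.10 for CEBPD, with adjusted p = 0.00237, 0.00115, 0.00214 and 0.00543 (limma). The median gene stood at -0.33, and the share over whole libraries was 9.30% in NEG and 8.001% in dTAG. The part of this library-wide difference in the members' changes was not tested. Of all genes, 3.81% had a lower change than CEBPA, 14.2% than CEBPB, 21.9% than CEBPG and 33.9% than CEBPD.

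In T3M-4 none of the C/EBP genes was called with dTAG. CEBPD, the gene furthest from 0, had 91.1, 86.6, 60.8 and 85.6 T>C CPM with dTAG and 59.6, 57.3, 54.2 and 55.1 with NEG. No dTAG library was as low as a NEG library, though 1 of the 4 was close, and how many of all genes separate so was not counted. The log2 fold change was 0.50 ± 0.18 (adjusted p = 0.446), or 0.60 in batch 1 and 0.42 in batch 2, and 0.834% of 13424 genes tested were called. With the replicate number as a block, which called 298 genes, it was 0.48 ± 0.14 (adjusted p = 0.170). All reads gave 17.5, 18.2, 11.3 and 13.7 CPM with dTAG against 11.4, 11.0, 9.25 and 9.04, for 0.56 ± 0.17 (adjusted p = 0.954), with 0.0191% of 15727 genes called.

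CEBPA stood at 7.36, 5.53, 6.97 and 6.80 T>C CPM with dTAG and 5.95, 4.95, 7.11 and 10.1 with NEG, CEBPB at 92.9, 87.0, 104 and 117 against 86.8, 75.7, 125 and 135, and CEBPG at 72.2, 97.0, 96.3 and 109 against 98.5, 77.9, 91.1 and 96.9. These groups overlapped, with log2 fold changes of -0.10 ± 0.29, -0.10 ± 0.23 and 0.02 ± 0.19. In batch 1 alone they were 0.23, 0.14 and -0.07. The CEBPG share was 43.8%, 40.6%, 40.8% and 42.2% with dTAG and 36.7%, 33.7%, 34.3% and 34.5% with NEG, above in 4 of 4 libraries, but 0.246% of 13424 genes were called and CEBPG was not among them (log2 odds 0.43 ± 0.12, adjusted p = 0.367). The CEBPA share was 57.4% ± 4.01 with dTAG and 63.9% ± 1.78 with NEG (SD, n = 4 each, log2 odds -0.39 ± 0.32, adjusted p = 0.845).

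The difference between lines in the dTAG effect was tested directly for T>C reads, where 0.0426% of 14088 genes were called. As T3M-4 minus AsPC-1 it was 0.99 ± 0.67 for CEBPA, 0.27 ± 0.28 for CEBPB, 0.26 ± 0.25 for CEBPD and 0.24 ± 0.22 for CEBPG (adjusted p from 0.991 to 1.00). With replicate blocks within each line, CEBPA was at 1.05 ± 0.27 (adjusted p = 0.111). A different response of CEBPA in the lines was therefore not shown.

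CB-6644 asks the same of RUVBL1 and RUVBL2. At 4 h in AsPC-1 edgeR called 0% of 11649 genes in T>C reads, with 482 at an unadjusted p below 0.05, and DESeq2 called 1. CEBPA had 4.14, 15.2, 19.6, 9.05 and 9.13 T>C CPM with CB-6644 and 1.78, 5.40, 11.2, 7.61 and 6.38 with DMSO. The groups overlapped. Each CB-6644 library was above the DMSO library of its number, but same-numbered libraries were not taken as pairs here. Replicate 1.2 was in set B with CB-6644 and in set A with DMSO. The log2 fold change was 0.83 ± 0.47 (adjusted p = 0.979), and with library set and experiment as blocks 0.40 ± 0.28 (adjusted p = 0.970). The CB-6644 libraries include 2 of set B and the DMSO libraries 1, and the part of this in the CEBPA value was not tested. Without CB-6644 replicate 1.3 the unblocked value was 0.54.

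CEBPB, CEBPD and CEBPG gave -0.13 ± 0.22, 0.00 ± 0.15 and 0.14 ± 0.16. CEBPD with CB-6644 had 76.1, 78.0, 77.8, 76.1 and 66.5 CPM, inside the DMSO range of 59.3 to 97.8. All reads gave 0% of 13891 genes (267 at an unadjusted p below 0.05, 5 in DESeq2) and CEBPA 0.85 ± 0.45. For the labelled share 2.07% of 11649 genes were called, all 241 of them lower, and none of the 4. The shares of CEBPB, CEBPD and CEBPG were 42.1%, 46.2% and 31.2% with CB-6644 against 48.3%, 52.3% and 37.5% with DMSO (log2 odds -0.36, -0.35 and -0.39, adjusted p = 0.209, 0.227 and 0.150). The median gene was at -0.27 and the share over whole libraries went from 10.1% to 8.51%.

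At 12 h in AsPC-1 CEBPB and CEBPD were lower with CB-6644 in 4 of 4 pairs, with same-numbered libraries taken as pairs. CEBPB had 44.9, 45.6, 43.6 and 45.9 T>C CPM with CB-6644 and 74.7, 49.5, 59.4 and 58.8 with DMSO, with no overlap. CEBPD had 47.2, 52.9, 45.2 and 41.9 CPM against 68.8, 66.1, 60.9 and 51.7, and 3 of 4 CB-6644 libraries lay below all of DMSO. The log2 fold changes were -0.42 ± 0.18 and -0.40 ± 0.18, and neither passed (adjusted p = 0.998 for both). edgeR called 0% of 12204 genes, with 473 at an unadjusted p below 0.05, and DESeq2 called 25. How many of all genes were lower in 4 of 4 pairs, or showed no overlap, was not counted.

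CEBPA at 12 h had 6.22, 7.67, 12.7 and 10.9 T>C CPM with CB-6644 and 2.09, 3.94, 9.96 and 10.3 with DMSO, higher in 4 of 4 pairs, at 0.53 ± 0.49 (adjusted p = 0.998) and with the block 0.73 ± 0.32 (adjusted p = 0.848). The unblocked value ran from 0.23 without DMSO replicate 1 to 0.83 without DMSO replicate 4. CEBPG had 104, 89.5, 80.8 and 98.4 against 120, 72.4, 99.3 and 124, at -0.15 ± 0.21. All reads gave -0.44 ± 0.17 for CEBPB and -0.32 ± 0.17 for CEBPD, with 0% of 14398 genes called (325 at an unadjusted p below 0.05, 21 in DESeq2). The labelled share gave 0% of 12204 genes (590 at an unadjusted p below 0.05 in limma), and that of CEBPB was 44.7% with CB-6644 and 44.6% with DMSO.

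The test of 12 h against 4 h in the CB-6644 effect called 0% of 12720 genes (414 at an unadjusted p below 0.05), with CEBPD at -0.40 ± 0.22 and CEBPB at -0.29 ± 0.30 (adjusted p = 1.00 for both). The 12 h libraries are all of batch 2 and the 4 h libraries of these groups all of batch 1, so time and batch cannot be told apart there.

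In T3M-4 CB-6644 gave 0% of 13444 genes called in T>C reads (569 at an unadjusted p below 0.05, 8 in DESeq2). CEBPA had 6.31, 9.56, 12.2 and 3.65 T>C CPM with CB-6644 and 4.88, 5.33, 8.17 and 10.8 with DMSO, so that a CB-6644 library was at each end of the range. The log2 fold changes of CEBPA, CEBPB, CEBPD and CEBPG were 0.12 ± 0.40, 0.07 ± 0.31, -0.03 ± 0.18 and -0.13 ± 0.22, and all 4 turned sign within batch 2. All reads called 0.0127% of 15761 genes and the share 0% of 13444 (387 at an unadjusted p below 0.05 in limma), none of them a C/EBP gene. The difference between lines called 0% of 13963 genes (511 at an unadjusted p below 0.05), with CEBPA at -0.71 ± 0.67 (adjusted p = 1.00).

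The lines themselves were compared in DMSO. In DMSO 4 h libraries 48.4% of 13044 genes differed in T>C reads and 55.7% of 15464 in all reads, and none of the 4 was called. As T3M-4 minus AsPC-1, T>C levels differed by 0.51 ± 0.29 for CEBPB (adjusted p = 0.177), -0.28 ± 0.17 for CEBPG (adjusted p = 0.191), 0.23 ± 0.45 for CEBPA and -0.16 ± 0.19 for CEBPD on the log2 scale. Compared over the NEG libraries instead, CEBPB was higher in T3M-4 by 0.76 ± 0.20 (adjusted p = 0.00383) and CEBPD lower, at -0.33 ± 0.13 (adjusted p = 0.0493), with all reads at 0.71 (adjusted p = 0.00295) and -0.53 (adjusted p = 0.00309). How many of all genes were called over the NEG libraries was not counted. In DMSO such calls were common (48.4% of genes in T>C reads and 55.7% in all reads). Whether the NEG calls set these genes apart is therefore not known.

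Genes of the same pathway were taken from 3 lists, of family members, partners and related factors, of upstream signals and protein turnover, and of known C/EBP targets. After NVP-2 in T3M-4, 4 of 8 tested genes of the first list fell and 0 rose, with a list median of -1.24 against -0.12 over all genes. That list holds CEBPZ (-0.02 ± 0.36), which shares the family name but is no leucine zipper protein, and over the other 7 the median was -1.39. The 4 that fell were DDIT3 (-5.14 ± 0.67), NFIL3 (-3.75 ± 0.72), TEF (-2.20 ± 0.58) and ATF4 (-1.08 ± 0.25). DDIT3 is an inhibitory C/EBP partner of the stress response, and ATF4 is the stress factor that pairs with CEBPG. Of 11 upstream and turnover genes, 4 fell and 1 rose (median -0.35). SOCS3, the feedback inhibitor of interleukin-6 signalling, was at -4.76 ± 0.44, TRIB1, an adaptor that brings CEBPA to the ubiquitin ligase COP1, at -3.02 ± 0.63, SIAH2 at -2.42 ± 0.73 and COP1 at -1.41 ± 0.37, while STAT3, which carries that signal, rose by 1.16 ± 0.30. Of 12 tested targets, 3 fell and 0 rose (median -0.67), namely IL1B (-3.21 ± 0.70), CXCL1 (-2.32 ± 0.42) and PTGS2 (-2.13 ± 0.37), which encode inflammatory mediators or their enzyme. Calls were made at an adjusted p below 0.05, as for the 26.7% of all genes. All these values are relative to the other new RNA of the same library. A gene that rose need not have had more new RNA. Scaled by all reads, the median gene was at -2.97 and 10 of 10536 called genes were higher. Values of the list genes were not taken in that scaling.

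With dTAG in T3M-4, PTGS2 rose by 1.11 ± 0.22 (adjusted p = 0.0476) and was the only gene of the 3 lists called, of 33 tested, where 0.834% of all genes were called. That call is close to the threshold. Leaving out 1 library brought the calls of this comparison from 112 to between 22 and 70, and PTGS2 was not followed in those fits. With dTAG in AsPC-1, 0 of 22 list genes were called, against 2.4% of all genes. With CB-6644, edgeR called 0% of all genes in T>C reads in either line, so no list gene could be called. Of the targets, 3 of 17 had enough reads to be tested in AsPC-1 and 13 in T3M-4. In the AsPC-1 NVP-2 contrast, described only, 10 of the 12 list genes called in T3M-4 had enough reads. Of these, SOCS3 was at -3.51, DDIT3 at -3.46, TRIB1 at -2.08, NFIL3 at -1.91, TEF at -1.79, ATF4 at -1.71, SIAH2 at -1.48 and CXCL1 at -1.26, whereas COP1 was at -0.31 and STAT3 at 0.24. ATF3, not called in T3M-4 (-1.39 ± 0.70, adjusted p = 0.168), was at -3.02, and LCN2, a C/EBP target that binds siderophores, was at 2.46. These values too are relative to the other new RNA of the library.

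Across the 12 group means of log2 T>C CPM, each line centred, the genes most like each member among 15102 were ZNF530 (Pearson r = 0.993), FAN1 and SPATA7 for CEBPA, ITPRIPL2 (0.997), DLX1 and WHAMMP4 for CEBPB, ARMC10 (0.996), PDCL and IWS1 for CEBPD and HPS6 (0.996), CRTC2 and MPP3 for CEBPG. The 4 members correlated with one another at 0.919 to 0.983. All these values share the pair of NVP-2 groups, which lie far from the other 10. Over those other 10 groups the gene most like each member was CABP1 (0.983) for CEBPA, OAF (0.951) for CEBPB, HOXA13 (0.958) for CEBPD and LZTS2 (0.923) for CEBPG, and the 3 nearest genes of each member shared 0 of 12 with those over all groups. There the members correlated at -0.39 (CEBPA with CEBPD) to 0.66 (CEBPB with CEBPG), as a description over groups that share control libraries.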

How the data were processed

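SLAM-seq was done on 62 libraries of AsPC-1 and T3M-4 cells. Per the study's methods, the authors aligned 3′-end reads with slamdunk to hg38 and summed counts over GENCODE 3′UTR exons per gene. They deposited raw counts of T>C reads and of all reads. Counts were tested in R 4.3.3 with edgeR 4.0.16 (filterByExpr, TMM, quasi-likelihood test, Benjamini-Hochberg adjustment), fitting only the groups compared. The labelled share was tested as log2 odds of T>C against other reads (pseudocount 0.5) with limma 3.58.1. DESeq2 1.42.0, other scalings, filters, blocks, batches and left-out libraries were alternatives. The replicate block for all reads was added after seeing the data. The fits without blocks were tried on simulated counts for dTAG in AsPC-1 and NVP-2 in T3M-4. These counts had no set, batch or pair structure, and the fits with blocks were not tried on them. A call is an adjusted p below 0.05, and intervals are exact at 95%, covering counting error only. Agreement between pairs and overlap between groups were counted for the 4 members only, so their frequency over all genes is not known.

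The members and gene lists were chosen with earlier results of these data known. Named genes were the 4 members, called genes of 3 lists with at most 4 others, and the 3 genes most like each member. Groups and replicate numbers came from the labels. Deviations of same-numbered libraries correlated above 0.1 in 10 of 10 pairs for dTAG in AsPC-1 (0.265 to 0.542). They did so in 4 of 4 for dTAG and CB-6644 in T3M-4 and for CB-6644 at 12 h. These libraries were therefore taken as pairs. Libraries of different numbers were not correlated, so this check cannot tell pairing from a shared library set or experiment. The all-reads column of AsPC-1 dTAG replicate 3.1 was not used, since 8047 genes there had more T>C reads than reads in all, against 0 in the other libraries.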

Additional observations from a re-analysis of the deposited data

Results flagged for a closer look

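Among 144 groups of 4 to 10 libraries of the C/EBP genes, 2 held a library far from the others for the group's range, where chance alone marks about 1 in 20 groups. CEBPD stood at 66.5 T>C CPM in AsPC-1 CB-6644 4 h replicate 2.2, below the next library at 76.1 CPM. The labelled share of CEBPD was 72.3% in T3M-4 dTAG replicate 2.2, above the next library at 67.3%. No cause was tested for either.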

How the results depend on the processing

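Of the members' results, those that changed side or sign did so as follows, as log2 values, and the cause was not tested. With the replicate number as a block, paired dTAG libraries of AsPC-1 gave CEBPA at -1.08 (library set and experiment blocks -1.06), CEBPB in all reads of T3M-4 dTAG 0.013, CEBPD with CB-6644 at 4 h in AsPC-1 0.016 (0.016 with the sets) and CEBPA in all reads of T3M-4 NVP-2 -1.52 (DESeq2 -1.50). The block changed no other call of a member. Same-numbered libraries were not taken as pairs for CB-6644 at 4 h in AsPC-1 (4 of 5 above the limit) or NVP-2 in T3M-4 (3 of 4). Scaling by all reads gave CEBPB -0.62, CEBPD -0.017 and CEBPG -0.45 for dTAG in AsPC-1, CEBPG -0.088 for CB-6644 at 4 h there (median gene -0.23), and -6.49, -5.81, -6.76 and -5.95 for CEBPA, CEBPB, CEBPD and CEBPG after NVP-2. Batch 1 alone gave CEBPA 0.23, CEBPB 0.14 and CEBPG -0.070 for dTAG in T3M-4. Batch 2 alone gave -0.27, -0.012, 0.052 and 0.027 for the 4 genes with CB-6644 and CEBPG -1.16 with NVP-2 in T3M-4. Other controls gave CEBPB -2.42 and CEBPD -3.45 (batch 2 NEG) and CEBPD -3.44 (DMSO 12 h) for NVP-2 in AsPC-1, and a pseudocount of 5 gave share changes of -2.75 for CEBPA and -4.32 for CEBPD. Between lines, NEG libraries gave T>C levels of -0.46, 0.76 and -0.33 for CEBPA, CEBPB and CEBPD and all-reads levels of 0.71, -0.53 and 0.12 for CEBPB, CEBPD and CEBPG, where DESeq2 gave CEBPG 0.00054.

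Leaving out 1 library at a time left 852 results as they were, turned 56 in sign, lost 7 calls and made 1. For dTAG in T3M-4 the T>C ranges were -0.23 to 0.15 (CEBPA), -0.23 to 0.063 (CEBPB) and -0.050 to 0.14 (CEBPG), all reads -0.12 to 0.084 (CEBPB) and shares -0.082 to 0.046 (CEBPB) and -0.055 to 0.071 (CEBPD). For CB-6644 at 4 h in AsPC-1 they were -0.25 to 0.073 (CEBPB) and -0.072 to 0.11 (CEBPD) in T>C and -0.24 to 0.040 and -0.10 to 0.061 in all reads. In T3M-4 they were -0.17 to 0.37, -0.15 to 0.23, -0.14 to 0.064 and -0.26 to 0.013 in T>C for CEBPA, CEBPB, CEBPD and CEBPG, -0.20 to 0.27, -0.13 to 0.15 and -0.12 to 0.11 in all reads for the first 3, and -0.33 to 0.19 (CEBPA) and -0.16 to 0.16 (CEBPG) in shares. At 12 h CEBPG ran from -0.25 to 0.063 in all reads and -0.22 to 0.0028 in shares, and CEBPB from -0.043 to 0.061 in shares. CEBPD in all reads of T3M-4 NVP-2 ran from -1.25 to -0.92. Line levels ran from -0.049 to 0.47 (CEBPA, T>C), -0.34 to 0.13 (CEBPA, all reads), -0.55 to -0.31 (CEBPD, all reads, called without T3M-4 DMSO replicate 1.1) and -0.12 to 0.066 (CEBPG, all reads).

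Counts of called genes moved by over 1.5 times in T>C reads for dTAG in AsPC-1, from 281 to 494 (DESeq2), 1190 (scaled by all reads), 867 (replicate block), 801 (sets), 103 (batch 1) and 16 (batch 2), and in all reads from 111 to 229 (DESeq2) and 542 (block). For dTAG in T3M-4 they moved from 112 to 353 (DESeq2), 298 (block), 292 (experiment sums) and 38 (batch 1), and in all reads from 3 to 69 (DESeq2) and 47 (block). CB-6644 went from 0 to 1 (DESeq2) and 15 (experiment sums) at 4 h in AsPC-1, to 25 (DESeq2) and 1 (sets) at 12 h and to 8 (DESeq2) in T3M-4, and in all reads from 0 to 5 and 21 (DESeq2) in AsPC-1 and from 2 to 12 (DESeq2) and 1 (block) in T3M-4. NVP-2 in T3M-4 went from 3263 to 10536 (scaled by all reads) and 2077 (experiment sums), and in all reads from 807 to 1470 (DESeq2) and 2626 (block). Leaving out 1 library brought the T>C count for dTAG in T3M-4 from 112 to between 22 (without dTAG replicate 2.1) and 70 (without NEG replicate 1.2), a move of over 1.5 times for each of the 8 libraries, its all-reads count from 3 to 0 in 8 of 8 fits and its share count from 33 to between 11 and 17 in 7 of 8, with 26 without dTAG replicate 1.2. Share calls for CB-6644 at 4 h in AsPC-1 went from 241 to between 34 and 104 in 7 of 10 fits, lowest without CB-6644 replicates 1.3 (34), 2.1 (36) and 1.2 (40) and DMSO replicate 1.2 (41), then DMSO 1.3 (92), CB-6644 2.2 (99) and DMSO 1.1 (104). T>C calls there went from 0 to 1 without DMSO replicate 2.1, and share calls at 12 h from 0 to 1 without CB-6644 replicate 2. For NVP-2 in T3M-4, T>C calls went to 2168 without DMSO replicate 2.2 and all-reads calls to between 492 and 536 without NVP-2 replicates 2.1 and 2.2 or any 1 DMSO replicate, and for CB-6644 there all-reads calls went from 2 to 1 in 7 of 8 fits, all but that without CB-6644 replicate 1.1. CEBPA after NVP-2 rests on 4 T>C reads in AsPC-1 and 3 in T3M-4, so its fold change is the least precise.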
